A study of Mus musculus with 12 samples.

Results

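The members of this set were 10 of the 39017 genes in the count table of 12 mouse lung tumors. There were 7 protein-coding genes near *Slc2a1*, the gene of the glucose transporter Glut1, on chromosome 4 (*Tcea3*, *Rhbdl2*, *Map3k6*, *Zswim5*, *Stmn1*, *Ndufs5* and *Rpl11*), and 3 processed pseudogenes that copy the last 3 of them (*Gm11223*, *BC002163* and *Gm10036*). They were chosen by symbol, with the difference between *Slc2a1* Flox/Flox and wild-type (WT) tumors already known, so that this difference is described for them and not tested. The set was named for linkage to the floxed *Slc2a1* allele. Neither linkage nor sequence variants were measured, *BC002163* and *Gm10036* lie on other chromosomes, and *Zswim5* and the 3 copied genes overlapped between the genotypes over both diets, so the members are called here by where they lie and what they copy.

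RNA was sequenced from the CD45-negative fraction, which is depleted of immune cells, of lung tumors taken 26 weeks after initiation. All mice had a C57BL/6 background and carried *K-ras* LSL-G12D/WT, *p53* Fl/Fl and CCSP-rtTA, and all received 6000 viral units of the lentivirus Lenti.TRE-PPARaD13_PGK-Cre, in which the PGK promoter drives Cre. The 3 KP and 3 KPG1 tumors came from mice on a regular diet. The 3 KP-PPARαΔ13 and 3 KPG1-PPARαΔ13 tumors came from mice whose food held doxycycline (625 mg/kg) for 15 days, which induces a dominant-negative PPARα (a nuclear receptor of fatty acid metabolism) in cells where the CCSP promoter is active. By their labels, the 6 KP tumors of both diets were WT at *Slc2a1* and the 6 KPG1 tumors were Flox/Flox. The authors state that control mice in their study were either WT or heterozygous (WT/Flox) at *Slc2a1*.

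The 12 tumors came from 9 mice, 5 WT and 4 Flox/Flox, as read from a number in the labels, so that some tumors share a mouse and the p-values below measure the spread between tumors. The 3 KP tumors were female and the 3 KPG1 tumors male, so that sex and genotype cannot be told apart on the regular diet, while both sexes were present in both genotypes on doxycycline. Total counts were between 25263794 and 32654223 per tumor, and 16527 genes, all 10 members among them, were abundant enough to test. CPM values are counts relative to these totals after TMM scaling, which corrects for differences in library composition. In bulk tumor fractions, fewer cells of a type and less RNA per cell cannot be told apart.

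When mice are bred for a targeted allele, the chromosome segment around it is inherited with it, and in mice whose targeted and control alleles come from different strains that segment can keep the sequence of the strain in which the allele was made. Processed pseudogenes are copies of mature messenger RNA that were inserted back into the genome, without introns and usually without a promoter. Because such a copy can be nearly identical to its source gene, short reads from one can be assigned to the other.

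The 3 pseudogenes were almost letter for letter the coding sequences of their sources, as the transcripts of GENCODE M21 (genome build mm10) give them. *Gm11223* (ENSMUSG00000046341, chromosome 4, 69925630 to 69926079, minus strand) differed from *Stmn1* at 1 of 450 aligned bases. *BC002163* (ENSMUSG00000081824, chromosome 16, 42955631 to 42955949, plus strand) differed from *Ndufs5* at 2 of 319 bases, and *Gm10036* from *Rpl11* at 4 of 534 bases. No alignment held a gap. The stretches in which a read of 85 bases can tell source from copy are shown for the first 2 pairs, in lower case with the differing bases in capitals, which are the substitutions A274G in *Gm11223* and T81C and A105G in *BC002163* (source base, position counted from 1 at the first base of the source's coding sequence, copy base).
Stmn1: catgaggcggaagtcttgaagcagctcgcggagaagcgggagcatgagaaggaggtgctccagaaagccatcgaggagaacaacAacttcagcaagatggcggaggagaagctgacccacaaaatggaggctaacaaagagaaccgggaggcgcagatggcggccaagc
Gm11223: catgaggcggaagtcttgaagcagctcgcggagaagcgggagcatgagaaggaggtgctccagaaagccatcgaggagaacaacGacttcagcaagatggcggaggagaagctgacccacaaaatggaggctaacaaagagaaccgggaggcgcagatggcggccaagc
Ndufs5: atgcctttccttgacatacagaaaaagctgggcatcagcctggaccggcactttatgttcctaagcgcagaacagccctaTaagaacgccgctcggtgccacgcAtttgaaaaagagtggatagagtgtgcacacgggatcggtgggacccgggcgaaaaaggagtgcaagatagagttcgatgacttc
BC002163: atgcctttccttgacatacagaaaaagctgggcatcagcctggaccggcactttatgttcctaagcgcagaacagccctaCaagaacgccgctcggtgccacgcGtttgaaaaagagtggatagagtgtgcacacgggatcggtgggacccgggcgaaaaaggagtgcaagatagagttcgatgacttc

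Within the copied sequence, only reads over these few bases tell a source from its copy. Of the 366 stretches of 85 bases in *Gm11223*, 281 (76.8%) are also found without a mismatch in *Stmn1*. The share was 55.3% for *BC002163* in *Ndufs5* (130 of 235) and 48.2% for *Gm10036* in *Rpl11* (217 of 450). Seen from the sources, 8.71% of the stretches of the *Stmn1* transcript cover a base that differs from *Gm11223*, against 18.3% for *Ndufs5* and 39.1% for *Rpl11*. These are shares of whole transcripts, which reach beyond the copied sequence. Only 281 of the 976 *Stmn1* stretches (28.8%) also occur in *Gm11223*, and 130 of 596 *Ndufs5* stretches (21.8%) in *BC002163*. For *Rpl11*, 453 of 749 (60.5%) occur in some other gene, 368 of them in *Gm10288*, described below. *Tcea3*, *Map3k6* and *Zswim5* shared no such stretch with any other annotated transcript, and *Rhbdl2* shared 54 of 1133 with 1 other gene. How the counting treated reads that fit several places is not given in the sources used here.

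The gene that the design targets, *Slc2a1* (ENSMUSG00000028645, chromosome 4, 119108711 to 119137983), was counted over the whole gene. It measured 41.7, 35.3 and 57.7 CPM in KP and 30.2, 64.0 and 39.9 CPM in KPG1 tumors, which overlapped, and 153, 115 and 108 CPM in KP-PPARαΔ13 against 23.7, 53.2 and 54.5 CPM in KPG1-PPARαΔ13 tumors, which did not. On the regular diet the *Slc2a1* count therefore did not tell the tumors labelled KPG1 from those labelled KP. The genotype named in each label is used throughout.

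Across the genotypes, 3 of the 7 protein-coding members were lower in every Flox/Flox tumor than in any WT tumor, the 3 pseudogenes were higher in every one, and 4 members overlapped. Of all 16527 genes, 0.188% did not overlap between the 6 and 6 tumors, 0.0908% lower and 0.0968% higher in Flox/Flox. The members were chosen for this difference, and nothing is read from their count.

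*Tcea3* (ENSMUSG00000001604, chromosome 4, 136247729 to 136274898, 17.1 Mb from *Slc2a1*) encodes a tissue-restricted form of the transcription elongation factor TFIIS, which rescues stalled RNA polymerase II. It measured 28.3, 38.5 and 38.6 CPM in KP and 18.4, 16.4 and 34.8 CPM in KP-PPARαΔ13 tumors. The Flox/Flox values were 4.16, 3.72 and 7.80 CPM in KPG1 and 2.76, 1.79 and 2.25 CPM in KPG1-PPARαΔ13 tumors. The lowest WT tumor was thus well above the highest Flox/Flox tumor, and on each diet the groups were apart. The fitted difference was a log2 fold change of -3.05 (SE 0.277) over both diets, 8.28-fold lower in Flox/Flox, with -2.75 (SE 0.385) on the regular and -3.35 (SE 0.398) on the doxycycline diet.

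*Rhbdl2* (ENSMUSG00000043333, chromosome 4, 123787874 to 123829904, 4.65 Mb from *Slc2a1*) encodes a rhomboid protease, which cuts proteins within the membrane. It measured 7.98, 1.82 and 12.4 CPM in KP and 9.05, 4.26 and 18.0 CPM in KP-PPARαΔ13 tumors. In Flox/Flox tumors it was barely detected, at 0.680, 0.413 and 0.297 CPM in KPG1 and 0.136, 0.704 and 0.277 CPM in KPG1-PPARαΔ13, from 4 to 22 reads per tumor. The WT tumors varied widely and none came down to the Flox/Flox level. Its log2 fold change over both diets, -4.39 (SE 0.608), was the largest decrease among the members, with -3.99 (SE 0.846) and -4.79 (SE 0.875) on the regular and the doxycycline diet.

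*Map3k6* (ENSMUSG00000028862, chromosome 4, 133240818 to 133252929, 14.1 Mb from *Slc2a1*) encodes ASK2, a stress-activated kinase upstream of JNK and p38. It measured 6.27, 3.61 and 4.94 CPM in KP and 10.2, 11.2 and 6.10 CPM in KP-PPARαΔ13 tumors. The KPG1 tumors held 1.96, 0.929 and 2.31 CPM and the KPG1-PPARαΔ13 tumors 1.84, 1.38 and 2.06 CPM. Here too no Flox/Flox tumor reached the lowest WT tumor, with the KP tumors nearest. The log2 fold change was -1.94 (SE 0.300) over both diets, -1.51 (SE 0.420) on the regular and -2.38 (SE 0.430) on the doxycycline diet.

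**Figure D1:**
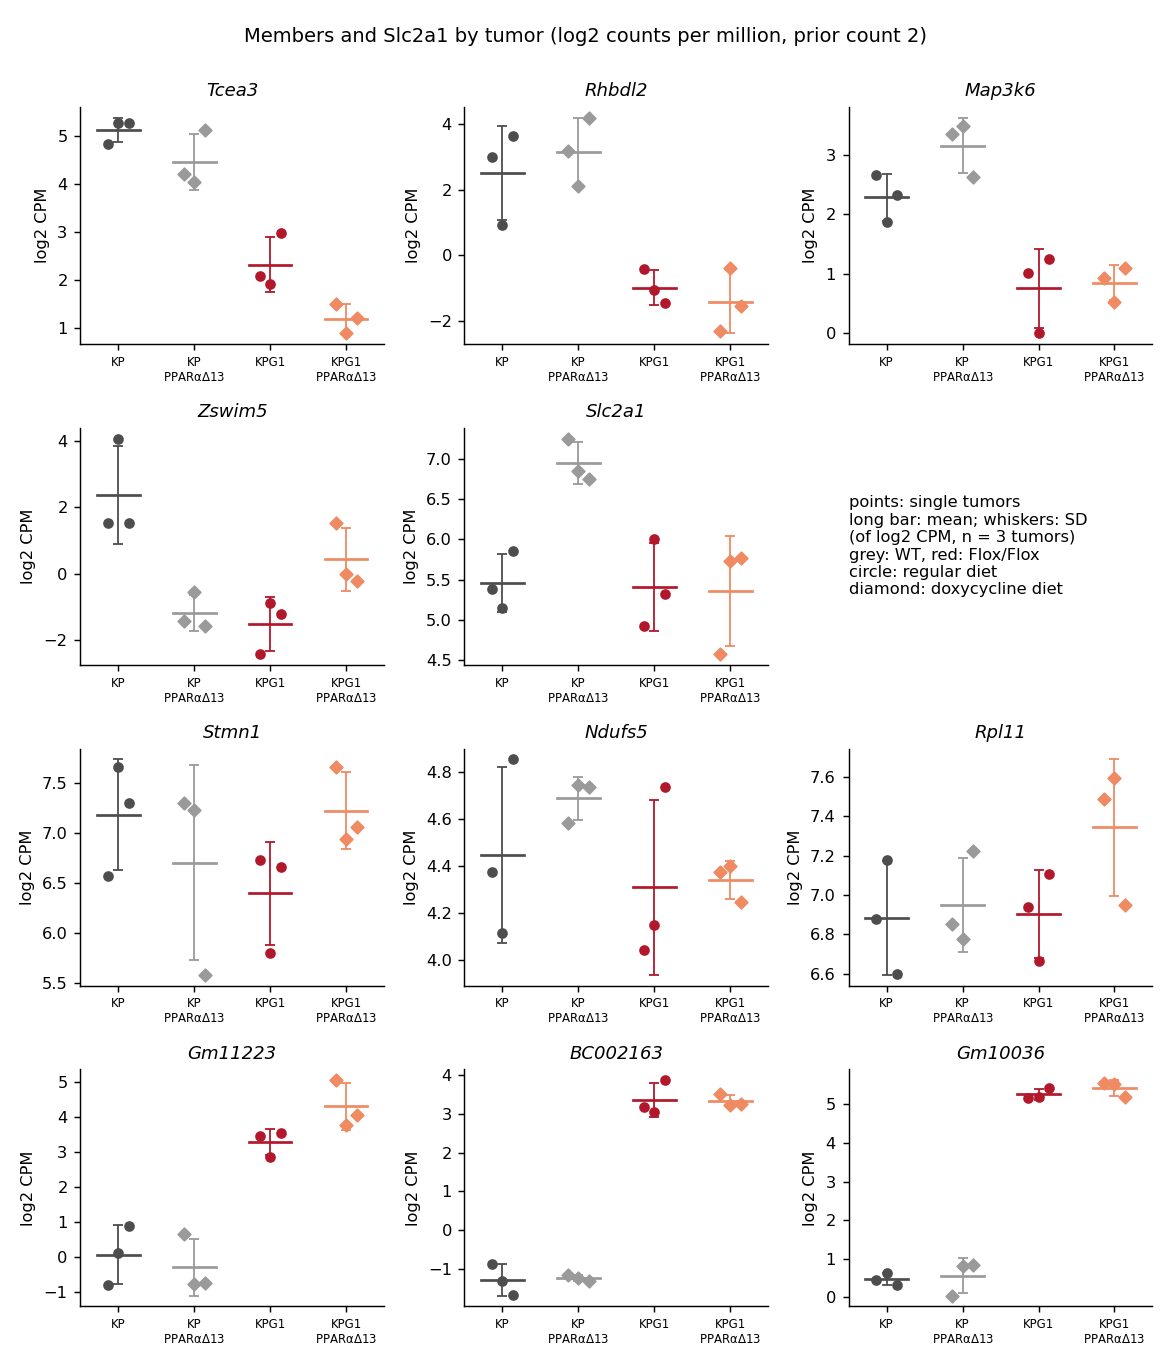
Log2 CPM (prior count 2) of the 10 members and Slc2a1 in each tumor, in 4 groups of 3, with WT tumors in grey, Flox/Flox tumors in red, circles for the regular and diamonds for the doxycycline diet, and the group mean with its SD. Tcea3, Rhbdl2 and Map3k6 lie lower and the 3 pseudogenes higher in all 6 Flox/Flox tumors, while Zswim5 is lower on one diet and higher on the other.

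The pseudogenes went the other way. *Gm10036* (ENSMUSG00000058064, chromosome 18), the copy of *Rpl11*, measured 1.30, 1.49 and 1.18 CPM in KP and 0.960, 1.68 and 1.71 CPM in KP-PPARαΔ13 tumors, against 35.9, 36.3 and 42.9 CPM in KPG1 and 47.1, 46.2 and 36.5 CPM in KPG1-PPARαΔ13 tumors. It had the widest gap between the genotypes of all members, 4.34 on the log2 CPM scale between the highest WT and the lowest Flox/Flox tumor, and its 6 Flox/Flox values were close to each other. The log2 fold change was 4.87 (SE 0.200) over both diets, 29.3-fold, with 4.85 (SE 0.283) and 4.89 (SE 0.283) on the regular and the doxycycline diet.

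*BC002163*, the copy of *Ndufs5*, measured 0.479, 0.333 and 0.244 CPM in KP and 0.377, 0.355 and 0.335 CPM in KP-PPARαΔ13 tumors, from 7 to 14 reads each. In KPG1 tumors it measured 8.92, 8.16 and 14.6 CPM, and in KPG1-PPARαΔ13 tumors 11.4, 9.25 and 9.54 CPM. The log2 fold change of *BC002163* was 4.85 (SE 0.280), nearly that of *Gm10036*, with 4.89 (SE 0.397) and 4.81 (SE 0.396) on the 2 diets.

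*Gm11223*, the copy of *Stmn1*, lies 49.2 Mb from *Slc2a1* on the same chromosome. It measured 0.514, 1.03 and 1.77 CPM in KP and 1.51, 0.516 and 0.536 CPM in KP-PPARαΔ13 tumors, against 10.96, 7.23 and 11.6 CPM in KPG1 and 33.4, 13.8 and 16.8 CPM in KPG1-PPARαΔ13 tumors. It was the pseudogene with the widest spread within the Flox/Flox tumors. Its log2 fold change was 3.90 (SE 0.425) over both diets, 3.16 (SE 0.582) on the regular and 4.64 (SE 0.622) on the doxycycline diet.

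Since some tumors share a mouse, the split is also given by mouse. Averaged by mouse, *Tcea3* ranged from 16.4 to 38.6 CPM over the 5 WT mice and from 1.79 to 7.80 CPM over the 4 Flox/Flox mice, and *Gm10036* from 0.960 to 1.71 and from 36.1 to 46.2 CPM. The same 6 members were apart by mouse as by tumor. This had to be so, because means of values that do not overlap cannot overlap, and it is no separate check. With sex as a covariate the log2 fold changes over both diets were -3.08 for *Tcea3*, -4.99 for *Rhbdl2*, -1.78 for *Map3k6*, 3.90 for *Gm11223*, 4.88 for *BC002163* and 4.90 for *Gm10036*, each within 1 SE of the value without it. On the regular diet, where sex and genotype coincide, the covariate moved *Rhbdl2* from -3.99 to -5.69 (SE 0.990), *Map3k6* from -1.51 to -1.03 (SE 0.600), *Zswim5* from -4.50 to -3.49 (SE 1.18) and *Rpl11* from 0.01 to -0.30 (SE 0.321).

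The 3 source genes overlapped between the genotypes over both diets. *Rpl11* (ENSMUSG00000059291, chromosome 4, 136028265 to 136053428, 16.9 Mb from *Slc2a1*), a protein of the large ribosomal subunit that also binds Mdm2, ranged from 96.8 to 149 CPM in WT and from 102 to 193 CPM in Flox/Flox tumors, with a log2 fold change of 0.21 (SE 0.161). *Ndufs5* (ENSMUSG00000028648, chromosome 4, 123712710 to 123718202, 4.57 Mb), a subunit of mitochondrial complex I, ranged from 17.2 to 28.9 CPM in WT and from 16.4 to 26.6 CPM in Flox/Flox tumors (log2 fold change -0.24, SE 0.175), and on the doxycycline diet alone its 3 Flox/Flox tumors lay below the 3 WT tumors, as 7.25% of all genes did. *Stmn1* (ENSMUSG00000028832, chromosome 4, 134468320 to 134473843, 15.3 Mb), stathmin, which destabilizes microtubules and is abundant in dividing cells, ranged from 47.8 to 202 CPM in WT and from 55.6 to 202 CPM in Flox/Flox tumors (log2 fold change -0.21, SE 0.309). None of the 3 sources was apart over both diets as its copy was. The KPG1-PPARαΔ13 tumors had the highest mean of *Rpl11*, with 179, 193 and 123 CPM, against 123, 102 and 138 CPM in KPG1 tumors. *Stmn1* measured 202, 123 and 133 CPM in KPG1-PPARαΔ13 and 106, 55.6 and 101 CPM in KPG1 tumors, and its lowest value of all was 47.8 CPM, in KP-PPARαΔ13 replicate 3.

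Set against its source, each copy took a narrow range of shares within a genotype. *BC002163* held 0.837% to 2.27% of the counts of *BC002163* and *Ndufs5* together in the 6 WT tumors (median 1.43%) and 30.6% to 35.6% in the 6 Flox/Flox tumors (median 34.4%). *Gm10036* held 0.824% to 1.51% of its pair in WT and 19.3% to 26.3% in Flox/Flox tumors, and *Gm11223* 0.343% to 1.11% and 9.39% to 14.2%. The copy's share thus separated the genotypes on both diets and varied far less among Flox/Flox tumors than the CPM of *Gm11223* did. In KPG1-PPARαΔ13 tumors *Gm11223* and *Stmn1* were both highest in replicate 1, at 33.4 and 202 CPM.

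**Figure D2:**
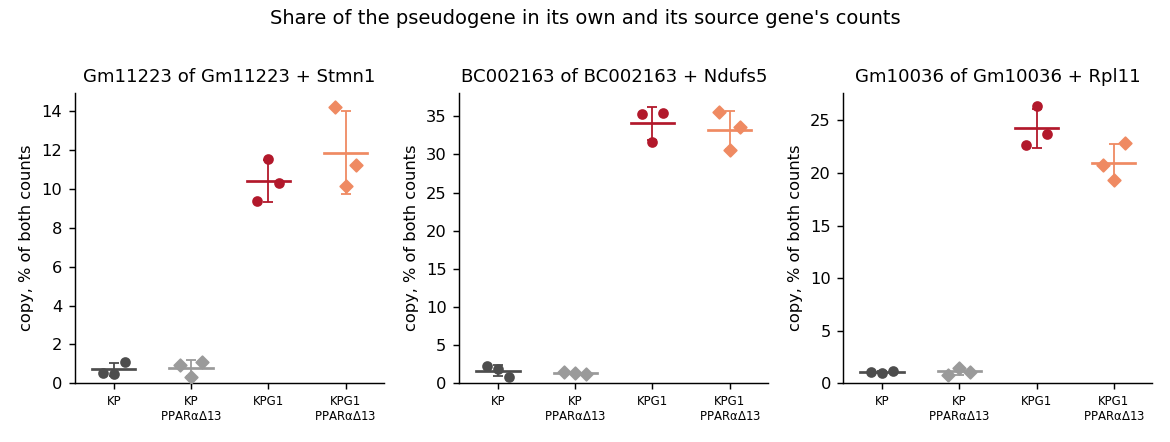
Share of each pseudogene in the counts of itself and its source gene, in percent, by tumor and group, with group means and SD (n = 3 tumors). All WT tumors lie at or under 2.27%, and the Flox/Flox tumors at 9.39% to 14.2% for Gm11223, 30.6% to 35.6% for BC002163 and 19.3% to 26.3% for Gm10036.

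Adding the copy to its source moved the genotype difference by more than the SD within groups for *Ndufs5* and *Rpl11*, but not for *Stmn1*. The mean log2 difference between Flox/Flox and WT tumors went from -0.13 for *Stmn1* alone to 0.03 for *Stmn1* and *Gm11223* together, with an SD of 0.647 within groups. The second value averages opposite differences, -0.64 on the regular and 0.69 on the doxycycline diet. For *Ndufs5* it went from -0.24 to 0.33 (SD 0.278), and for *Rpl11* from 0.21 to 0.56 (SD 0.263), with sums above WT on both diets (0.44 and 0.21 for *Ndufs5*, 0.41 and 0.72 for *Rpl11*). *Rpl11* has further copies. *Gm10288*, whose aligned bases were 99.8% identical to *Rpl11*, measured 57.9 to 226 CPM in WT and 23.9 to 141 CPM in Flox/Flox tumors, so that it overlapped between the genotypes with a log2 fold change of -1.11 (SE 0.452). With *Gm10288* added as well, a sum chosen after the values were seen, the difference for *Rpl11*, *Gm10036* and *Gm10288* together was 0.02.

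*Zswim5* (ENSMUSG00000033948, chromosome 4, 116877376 to 116989264), a zinc finger SWIM-domain gene, lies nearest to *Slc2a1* of the members, at 2.12 Mb. It measured 2.81, 16.7 and 2.82 CPM in KP and 0.308, 0.613 and 0.268 CPM in KP-PPARαΔ13 tumors. The KPG1 tumors held 0.120, 0.482 and 0.364 CPM and the KPG1-PPARαΔ13 tumors 2.80, 0.928 and 0.800 CPM. All 3 KPG1 tumors were thus below the KP tumors, with a log2 fold change of -4.50 (SE 0.913), while all 3 KPG1-PPARαΔ13 tumors were above the KP-PPARαΔ13 tumors, with 1.91 (SE 0.833). Of all genes, 5.13% were apart and lower on the regular diet and 10.3% apart and higher on doxycycline. One tumor, KP replicate 2, with 551 reads, weighed on the first value, which was -3.10 without it.

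Per kilobase of exon, the order of the members by median CPM in WT tumors was *Stmn1* (80.0 CPM per kb), *Rpl11* (43.2), *Ndufs5* (29.4), *Tcea3* (22.5), *Rhbdl2* (2.77), *Gm10036* (2.61), *Gm11223* (1.74), *Map3k6* (1.34), *BC002163* (1.08) and *Zswim5* (0.306). In Flox/Flox tumors it was *Gm10036* (74.3 CPM per kb), *Stmn1* (59.5), *Rpl11* (48.5), *BC002163* (29.5), *Gm11223* (28.2), *Ndufs5* (23.0), *Tcea3* (2.31), *Map3k6* (0.413), *Rhbdl2* (0.116) and *Zswim5* (0.115). On this scale of levels *Gm10036* ranked first in Flox/Flox tumors, although its range of 67.3 to 88.2 CPM per kb lay within that of *Stmn1*, 28.9 to 105. *BC002163* and *Ndufs5* also had overlapping ranges there, at 25.6 to 45.8 and 19.1 to 30.9 CPM per kb.

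The mean difference between the diets over both genotypes was not used to choose the members and was tested. The differences within one genotype come from the same group means as the genotype differences on each diet and are given without a test. No member passed an adjusted p of 0.05 over both genotypes (edgeR quasi-likelihood test, Benjamini-Hochberg adjustment over 16527 genes), where 0.0182% of all genes did (3 genes, with 1662 at an unadjusted p under 0.05). At an unadjusted p under 0.05, 1 member passed with edgeR, with DESeq2 and with limma voom, and none passed after adjustment with any of these tools (DESeq2 called 1.73% of all genes). It was *Tcea3* in the edgeR fit, with a log2 fold change of -0.90 (SE 0.259, edgeR adjusted p = 0.299) for doxycycline against regular diet. It was -0.60 (SE 0.361) in WT tumors, which overlapped, and -1.20 (SE 0.373) in Flox/Flox tumors, where all 3 tumors on doxycycline lay below the 3 on the regular diet, as did 9.41% of all genes.

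For the remaining members the log2 fold changes over both genotypes lay between -1.01 (*Zswim5*, SE 0.584, edgeR adjusted p = 0.604) and 0.46 (*Map3k6*, SE 0.292, edgeR adjusted p = 0.641). *BC002163* (-0.03, SE 0.250) and *Gm10036* (0.15, SE 0.174) had small values on this scale, but an adjusted p above the threshold does not show that the diets were alike. *Gm11223* measured -0.37 (SE 0.560) in WT and 1.11 (SE 0.534) in Flox/Flox tumors, in which *Stmn1* measured 0.80 (SE 0.439), and both genes did not overlap between those diets. Of all genes, 11.2% were apart and higher between those diets.

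*Zswim5* had the largest differences between diets of the members within a genotype, -4.21 (SE 0.896) in WT and 2.20 (SE 0.847) in Flox/Flox tumors on the log2 scale. The diets did not overlap in either genotype, and 6.7% of all genes were apart and lower in WT tumors. Without KP replicate 2 the difference in WT tumors was -2.81.

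**Figure D3:**
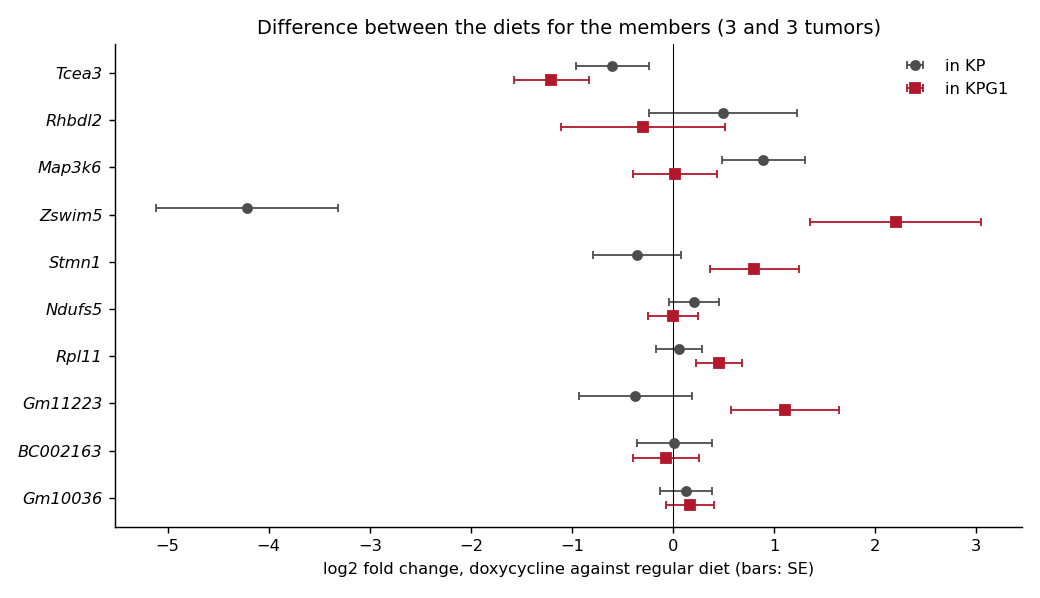
Log2 fold change of doxycycline against regular diet for each member in KP (circles) and KPG1 tumors (squares), 3 against 3, with bars for the standard error. Most members lie within 1 log2 unit of 0, and Zswim5 lies at -4.21 in KP and 2.20 in KPG1.

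Among the 454 tested genes within 20 Mb of *Slc2a1*, 6 were lower and 1 was higher in every Flox/Flox tumor than in any WT tumor, 1.54%, beside 0.188% of all genes. The 3 members *Tcea3*, *Rhbdl2* and *Map3k6* are among them. Without the members, 4 of 447 genes (0.895%) were apart. Of the other chromosomes, 17 had the highest share, 7 of 827 genes (0.846%), 5 of them lower. Its 2 higher genes were *Gm10093* and *Gm6594*, pseudogenes that copy genes within 20 Mb of *Slc2a1* (below). Of the stretches of 10 Mb along chromosome 4, the one from 130 Mb had the highest share of genes apart, 5 of 165 (3.03%), all lower. It was picked after the values were seen, and the 5 include the members *Tcea3* and *Map3k6*, which were chosen for this difference. The differences between these shares were not tested. *Aunip*, which encodes an interactor of Aurora kinase A and lies 15.4 Mb away, measured 1.13 to 2.98 CPM in WT and 0.275 to 1.02 CPM in Flox/Flox tumors (log2 fold change -1.61, SE 0.388). *Cep85*, a centrosomal protein gene 15.0 Mb away, measured 33.9 to 65.1 CPM and 18.1 to 30.8 CPM (log2 fold change -1.05, SE 0.208). The others of the 4 genes apart without the members were *Zfp46* (-0.71, SE 0.154) and *Efcab7* (0.87, SE 0.226), named after their values were seen. *Efcab7* lies on the opposite side of *Slc2a1* from *Tcea3* and was higher in Flox/Flox tumors.

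Most neighbors of the members did not differ in this way. The median log2 fold change of the 454 genes was -0.06, against -0.01 over all genes, and 447 of the 454 overlapped between the genotypes. Within 10 Mb of *Slc2a1*, 1 of 201 genes (0.498%) was apart, *Rhbdl2*. On chromosome 4 beyond 20 Mb it was 1 of 601 genes, *Gm11223*.

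**Figure D4:**
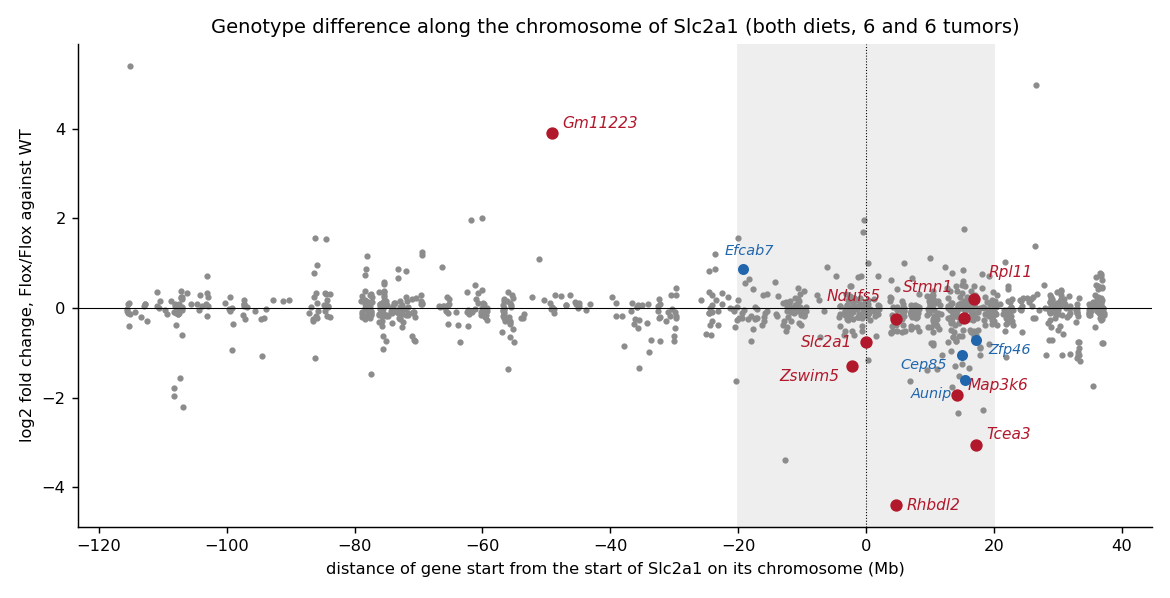
Log2 fold change of Flox/Flox against WT tumors over both diets for each tested gene on chromosome 4, by distance of its start from the start of Slc2a1 in Mb, with the members and Slc2a1 in red, 4 further genes whose genotypes do not overlap in blue, and the 20 Mb on either side shaded. Most of the 454 genes in the shaded window lie near 0, and Map3k6, Cep85, Aunip, Tcea3 and Zfp46 lie together 14.1 to 17.1 Mb away.

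Of 1055 tested pseudogenes that could be matched to a source gene, 37 copy a gene within 20 Mb of *Slc2a1*. The 1055 were selected by annotation, which took in unprocessed as well as processed pseudogenes. Of the 37, 6 (16.2%) were higher in every Flox/Flox tumor than in any WT tumor. None of the 1018 pseudogenes with a source elsewhere was apart in either direction. These counts depend on the annotated class, since some genes with pseudogene names are annotated as protein-coding and served as sources. Beside the 3 members, the 6 were *Gm7125* and *Gm6594*, which both copy *Hmgn2*, which encodes a nucleosome-binding protein and lies 14.8 Mb from *Slc2a1*, and *Gm10093*, which copies the histone deacetylase gene *Hdac1*, 10.4 Mb away. The 3 members were chosen for their difference, and without them 3 of 34 (8.82%) were apart. *Gm7125* and *Gm6594* were at or near 0 in WT tumors, so that they passed the filter on low counts only through the Flox/Flox tumors and had to differ. The shares are therefore a description, with no test.

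*Gm7125* (chromosome 15) measured at most 0.0323 CPM in WT and 0.862 to 2.02 CPM in Flox/Flox tumors, and *Gm6594* (chromosome 17) at most 0.134 CPM and 0.546 to 0.880 CPM. Both were among the 8 genes past an edgeR adjusted p of 0.05 between the genotypes (0.0484% of all genes). Since they passed the filter only through the Flox/Flox tumors, nothing is read from these 2 calls. *Gm10093* had a smaller difference, from 7.39 to 9.71 CPM in WT to 11.1 to 17.9 CPM in Flox/Flox tumors. All 5 source genes of the 6 pseudogenes overlapped between the genotypes, as *Hmgn2* did with 34.3 to 117 CPM in WT and 52.5 to 90.8 CPM in Flox/Flox tumors. The remaining 31 of the 37 pseudogenes overlapped as well, with log2 fold changes between -1.61 and 0.85.

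**Figure D5:**
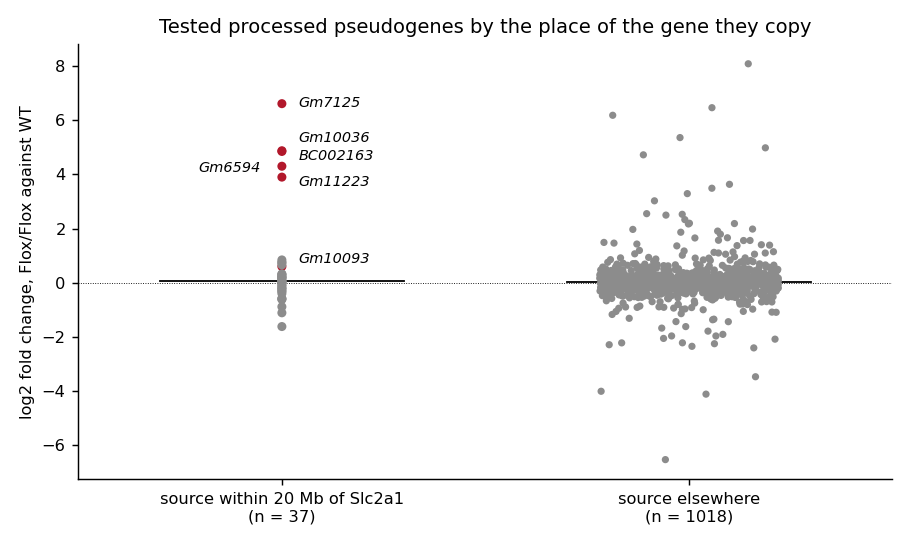
Fitted log2 fold change of Flox/Flox against WT tumors for 1055 tested pseudogenes, split by whether the gene they copy lies within 20 Mb of Slc2a1, with bars at the medians and the 6 pseudogenes whose genotypes do not overlap in red. Unprocessed pseudogenes are included, although the title names processed ones only. All 6 are in the group of 37 on the left, and far values on the right belong to genes whose tumors overlap.

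Over the 12 tumors, the genes whose log2 CPM followed *Gm10036* most closely were *BC002163* (Pearson r = 0.99), *Gm7125* (0.99), *Gm6594* (0.97), *Gm11223* (0.93) and, inversely, *Fkbp5* (-0.93). The 12 points are 2 separate clusters, the genotypes, and some tumors share a mouse, so these values describe the split and not a graded relation. *Fkbp5* (chromosome 17, 28399094 to 28517527), a co-chaperone of steroid receptors, measured 33.2 to 57.8 CPM in WT and 15.0 to 22.9 CPM in Flox/Flox tumors (log2 fold change -1.31, SE 0.183, edgeR adjusted p = 0.0323). That p counts tumors of the same mouse singly. With the tumors of a mouse summed, 0 genes lower in Flox/Flox passed, so that *Fkbp5* did not pass.

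Relatives of the members did not move with them past the test. Among 24 genes of the same families or complexes (2 *Tcea*, 4 rhomboid, 2 *Map3k*, 3 *Zswim*, 3 stathmin and 7 *Ndufs* genes, and 3 partners of *Rpl11*), 22 were tested, and 0 passed for genotype, diet or interaction with edgeR. At an unadjusted p under 0.05 there were 0, 0 and 4, beside 748, 1662 and 1952 of all 16527 genes. DESeq2 called 0, 0 and 1 (*Map3k15*, for the interaction). The *Ndufs* genes had a median log2 fold change of 0.14 for genotype and the rhomboid genes of -0.21, beside -0.01 over all genes.

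Markers of cell types were read from lists. Epithelial markers summed to between 1953 and 3732 CPM per tumor and leukocyte markers, depleted by the sort, to between 32.7 and 76.6 CPM, of which 4 of 6 were abundant enough to test. Of the 29 tested genes of the 8 cell type and cycling lists, 0 passed for genotype, diet or interaction with edgeR. At an unadjusted p under 0.05 there were 2, 7 and 3, beside 748, 1662 and 1952 of all 16527 genes. For diet this was a larger share than over all genes. DESeq2 called 0, 1 (*Hbb-bs*, for diet) and 0. Club cell markers summed to 12.9 to 119 CPM in KP and 119 to 372 CPM in KPG1 tumors, where sex and genotype coincide. On doxycycline the sums overlapped, at 29.9 to 115 CPM in KP-PPARαΔ13 and 25.6 to 170 CPM in KPG1-PPARαΔ13 tumors. The part of club cells in the members' values was not tested. The 4 cycling markers summed to 106 CPM in the tumor with the least *Stmn1*, KP-PPARαΔ13 replicate 3, the lowest sum of the 12, and their part in the level of *Stmn1* was not tested.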

How the data were processed

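The 12 tumors were mapped to KP, KP-PPARαΔ13, KPG1 and KPG1-PPARαΔ13 (3 each) from the labels, and the mouse was read from a number in the sample description. Single-end 85-base reads from stranded poly(A) libraries were trimmed (Cutadapt) and mapped to mm10 (HISAT2) by the authors, who deposited a raw count of reads per gene and tumor. The submitters' processing notes also name featureCounts 1.4.4 and edgeR, while the annotation, the strand setting and the treatment of multi-mapping reads are not given in the sources used here. The single and the combined tables were equal for all 12 tumors, and a table of log2 values was not used. Columns matching no sample numbered 0.

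Counts were fitted with edgeR 4.0.16 (TMM, filterByExpr by group, glmQLFit and glmQLFTest, R 4.3.3) for all 16527 tested genes and 12 tumors together, with Benjamini-Hochberg adjustment at 0.05. Each standard error was derived from the fold change and its F statistic. Positions and transcripts came from GENCODE M21 (96.4% of gene identifiers matched). Pseudogenes annotated as processed or unprocessed were matched to the protein-coding transcript with the best alignment over at least 50% of their length (BLAST 2.17.0), and member pairs were aligned with Biopython 1.88. Genes were called apart when no tumor of one group reached the other in log2 CPM.

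The members and lists were chosen with earlier results of these data known. Named in the text are the 10 members, *Slc2a1*, other genes past the threshold between the genotypes, up to 5 genes within 20 Mb of *Slc2a1* with a fold of at least 2 and no overlap, and up to 5 genes most like the member with the widest gap. *Gm10288*, *Gm10093*, *Hmgn2*, *Hdac1*, *Zfp46*, *Efcab7*, *Map3k15* and *Hbb-bs* were named after their values were seen. Alternatives were DESeq2 1.42.0, limma 3.58.1 voom, upper-quartile scaling, no filter, a mean of at least 20 TPM, sex as a covariate, a replicate block, summed tumors of a mouse, single groups and leaving out each tumor. Scripts were tested on simulated data.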

Additional observations from a re-analysis of the deposited data

Results flagged for a closer look

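*Zswim5* was flagged because every tumor lay to one side in one comparison and to the opposite side in its counterpart. How many of all genes do so was not counted. In the single comparisons, 5.13% of all genes were apart and lower on the regular diet and 10.3% apart and higher on doxycycline. Between the diets, 6.7% were apart and lower in WT and 11.2% apart and higher in Flox/Flox tumors. On the regular diet all 3 Flox/Flox tumors lay below the WT tumors and on doxycycline all 3 lay above them, and likewise doxycycline went with lower values in all 3 WT and higher values in all 3 Flox/Flox tumors. The difference between these effects was 6.42 on the log2 scale (SE 1.23), and it was 5.01 without KP replicate 2 and 5.10 with sex as a covariate. The difference was not tested, since both of its genotype effects were known when the gene was chosen. In none of the 20 sets of 6 tumors (10 members, 2 genotypes) did the gap from an extreme tumor to its nearest neighbor pass 0.625 of the range of log2 CPM, the critical value of Dixon's test. KP replicate 2, the highest of the WT tumors for *Zswim5* at 16.7 CPM against at most 2.82 CPM in the others, reached 0.450. These sets pool both diets, between which *Zswim5* did not overlap in WT tumors, and this widens the range. The criterion therefore does not show that KP replicate 2 was close to its own group, where the other tumors measured 2.81 and 2.82 CPM.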

How the results depend on the processing

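The genotype fold changes of *Tcea3*, *Rhbdl2*, *Map3k6* and the 3 pseudogenes kept their direction over both diets and on each diet under all alternatives in which they were tested. The 6 members that were apart by tumor were also apart by mouse, 5 WT against 4 Flox/Flox mice, a comparison chosen after the data were seen. Its outcome was fixed, because means of values that do not overlap cannot overlap. The filter of 20 TPM dropped *Rhbdl2*, *Map3k6* and *Zswim5*. Counts of genes past the threshold depended on the tool. With DESeq2 they were 39 in place of 8 between the genotypes, 53 in place of 6 on the regular and 160 in place of 5 on the doxycycline diet, 286 in place of 3 between the diets, 372 in place of 1 in WT, 197 in place of 1 in Flox/Flox tumors, and 286 in place of 0 for the interaction (with edgeR 1952 at an unadjusted p under 0.05). Between the genotypes the 20 TPM filter gave 4 and summed mice 3, while on each diet summed mice and the sex covariate gave 2 each, and the groups compared alone gave 10 on the regular diet. Without a filter, 5 genes were past the threshold between the diets and 2 in WT tumors. In WT tumors the sex covariate, summed mice and the groups alone gave 0, and in Flox/Flox tumors voom, summed mice and the groups alone gave 0. Fewer samples enter with summed mice and with groups alone; the cause of the other changes was not tested. The replicate numbers did not pair the samples (2 of 18 same-numbered pairs correlated above 0.1), and a replicate block gave 5 genes between the genotypes, 3 on doxycycline, 0 between the diets in WT and 2 in Flox/Flox tumors. Leaving out each tumor gave 6 to 11 genes between the genotypes, 2 to 6 on the regular and 2 to 10 on the doxycycline diet, 2 to 13 between the diets (13 without KP-PPARαΔ13 replicate 3), 0 to 1 in WT and 0 to 2 in Flox/Flox tumors, and 0 for the interaction, with 0 members past the threshold between the diets over both genotypes. Within 10 Mb, 0.498% of genes were apart, and the sums with the copies were 0.33 for *Ndufs5* and 0.56 for *Rpl11*. Small diet effects changed sign. *Rhbdl2* was -0.12 with sex as a covariate and -0.32 to 0.39 without single tumors, and *BC002163* was 0.011 with voom and -0.13 to 0.11 without single tumors. Depth limits *Rhbdl2* and *Zswim5*, with 4 to 22 and 3 to 82 reads in Flox/Flox tumors.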
